A study of Homo sapiens with 16 samples.

Results

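The genes described here are 51 genes of DNA replication and the G1/S transition, out of 61906 genes listed in the deposited tables. They were chosen by gene symbol, from a list of known replication genes, and all 51 were found, each under 1 gene identifier. No measured value enters the rule, but the list was chosen with earlier results of these data known. The study measured RNA by short-read sequencing in HEK-293T and HT-1080, 2 established human lines. HEK-293T derives from embryonic kidney and expresses SV40 large T antigen, a viral protein that binds the retinoblastoma protein; HT-1080 derives from a fibrosarcoma. Cells of each line received either siNegative, the negative control siRNA, or siHNRNPH1, an siRNA directed at the RNA-binding splicing regulator HNRNPH1, at 20 nM, and RNA was taken 48 h later. Each of the 4 groups (HEK-293T siNegative, HEK-293T siHNRNPH1, HT-1080 siNegative and HT-1080 siHNRNPH1) had 3 libraries, which the labels call biological replicates. The labels name no siRNA sequence, and loss of HNRNPH1 and any other action of siHNRNPH1 cannot be told apart.

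Replication starts at origins that are licensed in G1, when the origin recognition complex, CDC6 and CDT1 load the MCM helicase onto DNA. As cells enter S phase the helicase is activated by CDC45 and the GINS complex, primase and the polymerases start synthesis, and the clamp PCNA, its loader RFC and the enzymes of Okazaki fragment maturation complete both strands. Many of these genes are transcribed in late G1 and S phase under E2F transcription factors, which the retinoblastoma protein restrains, and they are known as markers of proliferating cells. Nucleotide synthesis and chromatin assembly genes supply the fork with precursors and package the new DNA.

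An E2F-type motif was searched in the promoters because E2F factors are the textbook regulators of this gene group. The letters TTTCCCGC, TTTCGCGC, TTTGCCGC and TTTGGCGC were sought on both strands, where matches may overlap, in RefSeq promoter windows of 300 bases (GRCh38.p14), from 250 bases before to 50 bases after the gene start. Windows were matched for 44 of the 51 genes, and 21 of the 44 (47.7%) held at least 1 match. Among all 35116 windows of that length 3.31% held a match, and among the windows of 11123 genes tested in HT-1080 5.40% did. The lines that follow show 30 bases around 1 match in the 6 genes with a match whose RNA had the lowest log2 fold changes in HT-1080. Each is written 5′ to 3′ on the strand of its gene, with the match or its reverse complement in capitals.
ZNF367: cgaaatgtaacGCGGGAAAagccggggcag
CLSPN: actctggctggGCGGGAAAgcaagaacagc
CDC6: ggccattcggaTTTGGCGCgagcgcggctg
GINS2: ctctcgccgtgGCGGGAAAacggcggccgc
DTL: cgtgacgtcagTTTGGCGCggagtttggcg
POLE2: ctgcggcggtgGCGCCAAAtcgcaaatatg
The printed stretches are those of ZNF367 at chr9:96418373-96418402 on the minus strand, CLSPN at chr1:35769965-35769994 on the minus strand, CDC6 at chr17:40287875-40287904 on the plus strand, GINS2 at chr16:85688967-85688996 on the minus strand, DTL at chr1:212035729-212035758 on the plus strand and POLE2 at chr14:49688201-49688230 on the minus strand. The first base of the match stood at these positions relative to the gene start: ZNF367 -21, CLSPN -5, CDC6 7, GINS2 -31, DTL -8, POLE2 -5. GCGGGAAA, the reverse complement of TTTCCCGC, appeared in ZNF367, CLSPN and GINS2, TTTGGCGC in CDC6 and DTL, and its reverse complement GCGCCAAA in POLE2. No windows were matched for MCM4, MCM5, GINS4, POLD3, RPA2, RPA3 and WDR76. A match describes the letters and says nothing about binding.

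Library totals were 107.7 to 121.0 M expected counts (M for mega) in HEK-293T and 27.3 to 32.7 M in HT-1080, so counting error was smaller in HEK-293T. Levels are given as CPM, counts per M of the library total. They are relative to all RNA of a library, and fewer cells in S phase and less mRNA per S-phase cell cannot be told apart in bulk RNA. HNRNPH1 itself was at 1107, 1105 and 1121 CPM with siNegative and 234, 376 and 394 CPM with siHNRNPH1 in HEK-293T. In HT-1080 it was at 635, 606 and 617 CPM with siNegative and 232, 231 and 228 CPM with siHNRNPH1, and no group overlapped its control in either line. Its log2 fold change was -1.76 ± 0.20 (SE; edgeR adjusted p = 0.00939) in HEK-293T and -1.49 ± 0.04 (adjusted p = 6.76e-09) in HT-1080. The difference between the lines was 0.20 ± 0.19 and did not pass the test (adjusted p = 0.506). In HEK-293T HNRNPH1 passed the test in 2 of 6 fits that left out 1 library (highest adjusted p = 0.0760), and without siHNRNPH1 replicate 1 the change was -1.58 ± 0.03 (adjusted p = 6.94e-21). That replicate stood apart from the other siHNRNPH1 libraries of its line: 26 of the 51 genes were above both of them, 24 below both and 1 between, and its ratio to their mean ran from 0.400 (CLSPN) to 2.46 (CDT1). HEK-293T results are therefore also given without it, when replicates 2 and 3 alone make up the siHNRNPH1 group. Chi-square divided by its degrees of freedom was 9.1 between replicates 2 and 3, against 811 and 847 for replicate 1 with either. Without replicate 1, 61.8% of the 20329 genes tested were called in either direction. In HT-1080, siNegative replicate 2 departed from replicates 1 and 3 (chi-square divided by its degrees of freedom: 17.8 and 17.4, against 1.78 between those replicates). Without it all 51 genes were still called lower, with a median log2 fold change of -1.62. Of the markers of each line, NEFM and LIN28B were higher in every HEK-293T library than in any of HT-1080. MMP14, TGFBI and CAV1 were higher in every HT-1080 library. However, THY1 was at or near 0 in both lines, and in HEK-293T PAX2 reached only 2.20 CPM and NEFH only 0.956 CPM. CDKN2A, which HT-1080 lacks, was at 0 in all 6 HT-1080 libraries.

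In HT-1080 all 51 replication genes fell after siHNRNPH1, and none rose (edgeR quasi-likelihood test, Benjamini-Hochberg adjusted p under the threshold of 0.05). Among the 16145 genes tested in this line, 32.6% were called lower and 32.7% higher. The median log2 fold change was -1.69 over the 51 genes and 0.01 over all genes tested, with extremes of -3.44 (ORC6) and -0.30 (RFC1). Changes of -1 or lower were found for 44 of the 51, against 6.87% of all genes tested. In each of the 51 genes every siHNRNPH1 library was below every siNegative library, which held for 30.6% of all genes tested. The genes' summed level was 3547, 3654 and 3500.2 CPM with siNegative and 1297, 1346 and 1271 CPM with siHNRNPH1. Relative to the siNegative mean of each gene, the median gene stood at 32.8, 35.1 and 32.6% in the siHNRNPH1 libraries. The highest adjusted p among the 51 was 0.00116, for RFC1.

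HEK-293T gave a smaller change of the same genes. With all 6 libraries, 7 of 51 fell and 0 rose by the edgeR test, against 4.88% of 19966 genes tested called lower and 5.12% called higher. The 7 were ORC6, CDC6, CDC45, POLD3, LIG1, RRM2 and TIMELESS. The median log2 fold change over the 51 genes was -0.13, against 0.02 over all genes tested. Without siHNRNPH1 replicate 1, 32 fell (all genes: 31.3% lower) and 2 rose (all genes: 30.5% higher), and the median was -0.21. No gene of the 51 was called when any single siNegative library was left out, when 20, 0 and 0 of all genes tested were called (without replicate 1, 2 and 3). In each of these edgeR fits 8 of the 51 had an unadjusted p under 0.05, as did 3525 of 20483, 3517 of 20523 and 3486 of 20480 genes tested, so the share of the 51 was not above that of all genes. Leaving out siHNRNPH1 replicate 2 gave 1 call, against 0.545% of all genes called lower, and leaving out replicate 3 gave 2, against 1.43%. The siHNRNPH1 libraries were all below the siNegative libraries in 21 genes (all genes: 21.0%) and all above them in 7 (all genes: 22.7%), and the groups overlapped in 23. Relative to its siNegative mean, the median gene stood at 94.5, 91.8 and 89.5% in the siHNRNPH1 libraries. Because all 51 genes fell in HT-1080, those lower in both lines were the same 32, and this count adds no further result. Of the 15063 genes tested in both lines, 16.7% were lower in both, taking HEK-293T without replicate 1.

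**Figure D1:**
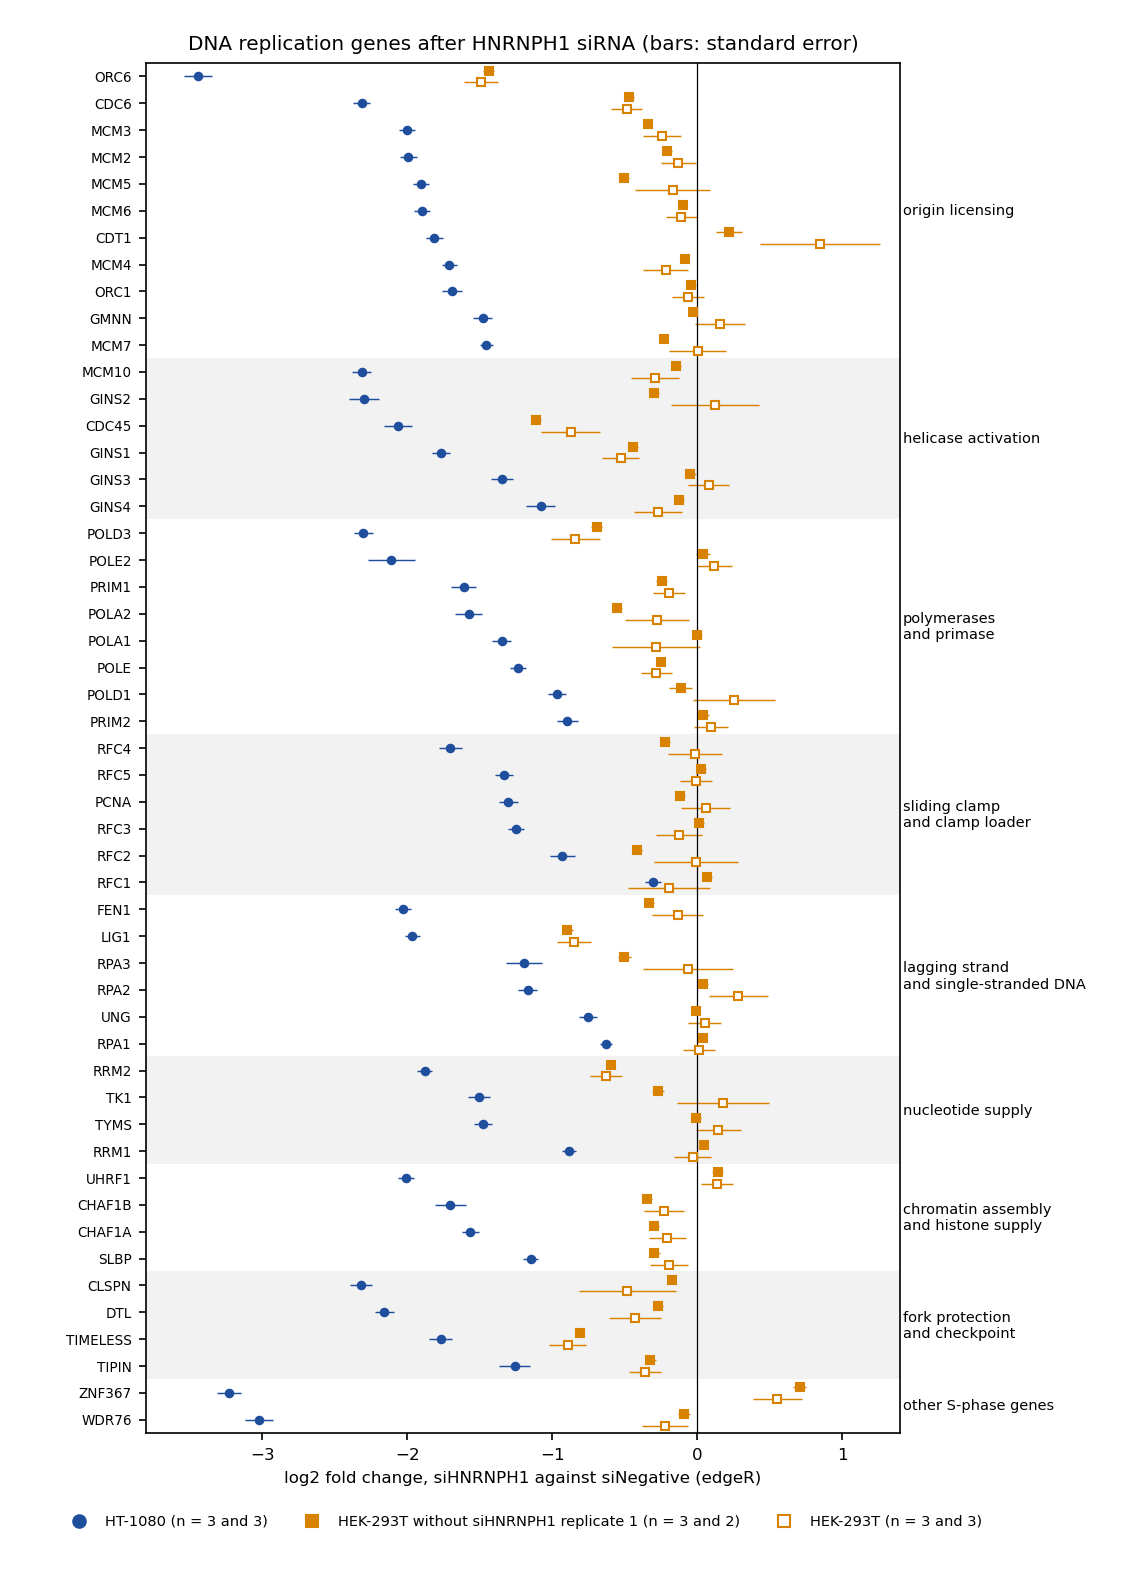
Log2 fold change (siHNRNPH1 against siNegative) of each of the 51 genes in HT-1080 (circles), HEK-293T (open squares) and HEK-293T without siHNRNPH1 replicate 1 (filled squares), grouped by role, with standard errors. All 51 HT-1080 values lie below 0, from -3.44 for ORC6 to -0.30 for RFC1, and the HEK-293T values lie nearer to 0.

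**Figure D2:**
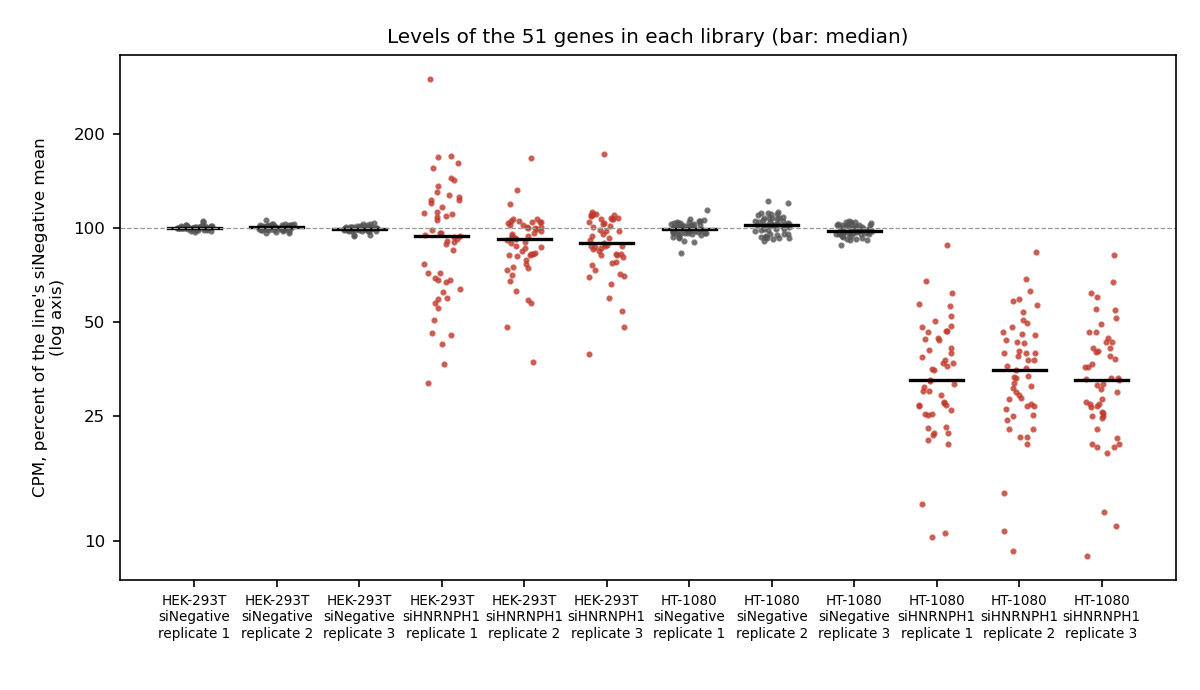
Level of each of the 51 genes in each of the 12 libraries as a percent of the siNegative mean of its line, on a log axis, with a bar at the median. The median gene lies between 32.6 and 35.1% in the HT-1080 siHNRNPH1 libraries and between 89.5 and 94.5% in those of HEK-293T.

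The largest decrease of a single gene in HT-1080 was that of ORC6, an origin licensing gene. All 11 origin licensing genes fell there, from -3.44 to -1.45 in log2 fold change, with a median of -1.90. ORC6 (ENSG00000091651.9), the smallest subunit of the origin recognition complex, was at 22.6, 25.3 and 22.5 CPM with siNegative and 2.50, 2.17 and 2.11 CPM with siHNRNPH1 in HT-1080. In HEK-293T its level was 66.8, 64.9 and 65.3 CPM with siNegative and 21.02, 24.5 and 25.9 CPM with siHNRNPH1. The groups did not overlap in either line, and each siHNRNPH1 library stood far below its controls. The log2 fold change of ORC6 was -3.44 ± 0.10 (SE; edgeR adjusted p = 7.3e-09) in HT-1080 and -1.49 ± 0.12 (adjusted p = 0.00532) in HEK-293T. Without siHNRNPH1 replicate 1 the HEK-293T value was -1.44 ± 0.04 (adjusted p = 3.41e-18), and the highest adjusted p on leaving out a library was 0.0638. CDC6 (ENSG00000094804.12), the ATPase that helps load the MCM ring, was at 49.7, 49.4 and 52.4 CPM with siNegative and 11.03, 10.8 and 10.1 CPM with siHNRNPH1 in HT-1080. CDC6 in HEK-293T was at 169, 169 and 167 CPM with siNegative and 114, 125 and 128 CPM with siHNRNPH1. Its groups were also apart in both lines, but the drop in HEK-293T was shallow: -0.48 ± 0.11 (edgeR adjusted p = 0.0417) against -2.31 ± 0.06 (adjusted p = 5.98e-09) in HT-1080. Leaving out a HEK-293T library took the adjusted p of CDC6 as high as 0.208, and without replicate 1 it was 5.5e-12.

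ORC1 (ENSG00000085840.13), an ATP-binding subunit of the recognition complex, was at 21.6, 22.2 and 23.3 CPM with siNegative and 6.95, 7.44 and 7.34 CPM with siHNRNPH1 in HT-1080. It fell there by 1.69 on the log2 scale (edgeR adjusted p = 4.27e-08). ORC1 in HEK-293T was at 63.7, 64.7 and 64.4 CPM with siNegative and 58.1, 63.8 and 66.2 CPM with siHNRNPH1, with overlapping groups and a log2 fold change of -0.06 ± 0.11 (adjusted p = 0.752). The MCM genes encode the 6 subunits of the helicase ring, and all 6 fell in HT-1080: MCM2 -1.99, MCM3 -2.002, MCM4 -1.71, MCM5 -1.90, MCM6 -1.90 and MCM7 -1.45. The least change in this set was that of MCM7. MCM2 (ENSG00000073111.14) was at 156, 157 and 162 CPM with siNegative and 40.04, 45.2 and 39.6 CPM with siHNRNPH1 in HT-1080, and at 295, 297 and 291 CPM with siNegative and 290.0, 274 and 257 CPM with siHNRNPH1 in HEK-293T. MCM3 (ENSG00000112118.20) was at 100.1, 98.5 and 92.7 CPM with siNegative and 26.9, 24.5 and 24.9 CPM with siHNRNPH1 in HT-1080, and at 389.6, 399 and 394 CPM with siNegative and 369, 323 and 324 CPM with siHNRNPH1 in HEK-293T. MCM6 (ENSG00000076003.5) was at 69.00, 74.6 and 70.7 CPM with siNegative and 19.9, 20.9 and 19.5 CPM with siHNRNPH1 in HT-1080, and at 303, 309 and 299 CPM with siNegative and 270.2, 292 and 298 CPM with siHNRNPH1 in HEK-293T. In HT-1080 the groups of these genes did not overlap. In HEK-293T no MCM subunit passed the test with all libraries, and their log2 fold changes were -0.13, -0.24, -0.21, -0.17, -0.11 and 0.00 for MCM2 to MCM7. Without replicate 1 all 6 fell there (all genes: 31.3% lower), at -0.21, -0.34, -0.09, -0.51, -0.10 and -0.23. No other fit that left out a HEK-293T library called any of these MCM genes. CDT1, the CDC6 partner in loading, and GMNN, its inhibitor geminin, fell in HT-1080, with log2 fold changes of -1.81 and -1.48. CDT1, named here after its values were seen, was at 41.7, 44.01 and 39.2 CPM with siNegative and 124, 55.02 and 45.97 CPM with siHNRNPH1 in HEK-293T, where replicate 1 stood far above the others (log2 fold change 0.85 ± 0.41, adjusted p = 0.260; without that replicate 0.22 ± 0.09, adjusted p = 0.0798). Of the 11 licensing genes 8 fell in HEK-293T without replicate 1 (all genes: 31.3% lower). ORC1 (-0.04), CDT1 and GMNN (-0.03) did not pass the test.

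All 6 helicase activation genes fell in HT-1080, with a median log2 fold change of -1.92. MCM10 (ENSG00000065328.17), a scaffold needed for helicase activation, was at 42.7, 40.01 and 42.98 CPM with siNegative and 8.56, 9.52 and 8.36 CPM with siHNRNPH1 in HT-1080. In HEK-293T MCM10 was at 113, 115 and 111 CPM with siNegative and 70.6, 106 and 107 CPM with siHNRNPH1, and replicate 1 of siHNRNPH1 was the low library there. MCM10 fell by 2.31 on the log2 scale in HT-1080 (edgeR adjusted p = 7.3e-09). Its HEK-293T value was -0.29 ± 0.17 (adjusted p = 0.336) with and -0.14 ± 0.03 (adjusted p = 0.000412) without replicate 1. CDC45 (ENSG00000093009.11), which joins GINS and the MCM ring in the active helicase, was at 16.99, 20.02 and 17.4 CPM with siNegative and 4.18, 4.78 and 4.67 CPM with siHNRNPH1 in HT-1080. CDC45 in HEK-293T was at 99.3, 99.5 and 102 CPM with siNegative and 69.6, 48.5 and 48.5 CPM with siHNRNPH1. Its groups were apart in both lines, with log2 fold changes of -2.06 ± 0.10 (edgeR adjusted p = 1.13e-07) in HT-1080 and -0.87 ± 0.20 (adjusted p = 0.0494) in HEK-293T. Without replicate 1 the HEK-293T value was -1.11 ± 0.03 (adjusted p = 1.87e-17), and the highest adjusted p on leaving out a library was 0.188. The GINS subunits GINS1 to GINS4 fell unequally in HT-1080, with log2 fold changes of -1.77, -2.30, -1.34 and -1.08. In HEK-293T without replicate 1, 5 of the 6 helicase activation genes fell (all genes: 31.3% lower), and GINS3 (-0.05) did not pass the test.

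The 8 polymerase and primase genes fell in HT-1080 from -2.30 to -0.89, with a median of -1.46. POLD3 (ENSG00000077514.9), an accessory subunit of the lagging-strand polymerase delta, was at 29.3, 27.8 and 30.4 CPM with siNegative and 6.44, 5.94 and 6.22 CPM with siHNRNPH1 in HT-1080. In HEK-293T POLD3 was at 61.1, 59.98 and 62.1 CPM with siNegative and 26.04, 38.3 and 40.4 CPM with siHNRNPH1. The groups were apart in both lines: -2.30 ± 0.07 (edgeR adjusted p = 7.3e-09) in HT-1080 and -0.84 ± 0.17 (adjusted p = 0.0357) in HEK-293T. The value without replicate 1 was -0.69 ± 0.04 (adjusted p = 5.4e-13), and the highest adjusted p on leaving out a HEK-293T library was 0.164. POLD1, the catalytic subunit of the same polymerase, had a log2 fold change of -0.97 in HT-1080. The leading-strand polymerase subunits POLE and POLE2 had log2 fold changes of -1.23 and -2.11. The primase and polymerase alpha genes, which lay the first primers, had log2 fold changes of -1.35 (POLA1), -1.58 (POLA2), -1.61 (PRIM1) and -0.89 (PRIM2). In HEK-293T without replicate 1, 4 of the 8 fell (all genes: 31.3% lower): POLD3, POLA2 (-0.55), PRIM1 (-0.25) and POLE (-0.25).

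All 6 genes of the sliding clamp and its loader fell in HT-1080, and RFC1 among them had the smallest decrease of the 51. PCNA, the clamp that tethers polymerases to DNA, had a log2 fold change of -1.30, and those of the loader subunits RFC1 to RFC5 were -0.30, -0.93, -1.25, -1.70 and -1.33. RFC4 (ENSG00000163918.12) was at 54.2, 63.4 and 53.4 CPM with siNegative and 18.7, 17.9 and 18.6 CPM with siHNRNPH1 in HT-1080, and at 83.3, 81.3 and 84.5 CPM with siNegative and 102, 71.97 and 75.97 CPM with siHNRNPH1 in HEK-293T. RFC5 (ENSG00000111445.14) was at 36.6, 38.9 and 37.99 CPM with siNegative and 16.9, 15.1 and 15.3 CPM with siHNRNPH1 in HT-1080, and at 93.1, 92.1 and 92.7 CPM with siNegative and 85.4, 96.4 and 99.9 CPM with siHNRNPH1 in HEK-293T. In both genes every HT-1080 siHNRNPH1 library was low, and the HEK-293T groups overlapped. RFC1 (ENSG00000035928.17), the largest subunit, was at 46.95, 41.6 and 45.7 CPM with siNegative and 39.5, 37.6 and 36.8 CPM with siHNRNPH1 in HT-1080, a narrow gap between groups (edgeR adjusted p = 0.00116). RFC1 in HEK-293T was at 148, 153 and 148 CPM with siNegative and 76.2, 159 and 168 CPM with siHNRNPH1, where replicate 1 was low and the other siHNRNPH1 replicates lay above the controls. The HEK-293T value of RFC1 was -0.19 ± 0.28 (adjusted p = 0.706), and without replicate 1 it was 0.07 ± 0.03 (adjusted p = 0.0602). Without that replicate PCNA (-0.12), RFC2 (-0.41) and RFC4 (-0.22) fell (all genes: 31.3% lower), and RFC3 (0.01) and RFC5 (0.03) did not pass the test. With library size alone as scaling, RFC2, RFC4 and RFC5 changed the sign of their uncalled HEK-293T values. When the spread was shared over all 12 libraries, RFC1 was not called in HT-1080.

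Lagging-strand and single-stranded DNA genes fell in HT-1080 to very different extents. FEN1 (ENSG00000168496.4), the nuclease that trims Okazaki fragment flaps, was at 233, 256 and 233 CPM with siNegative and 61.1, 64.8 and 59.5 CPM with siHNRNPH1 in HT-1080 and fell by 2.03 on the log2 scale (edgeR adjusted p = 7.3e-09). In HEK-293T FEN1 was at 189.5, 190.3 and 189 CPM with siNegative and 212, 158 and 156 CPM with siHNRNPH1, with replicate 1 above all controls and the other replicates below them (-0.13 ± 0.18, adjusted p = 0.679; without replicate 1 -0.33 ± 0.03, adjusted p = 1.1e-09). LIG1 (ENSG00000105486.15), the ligase that joins the fragments, was at 70.5, 70.7 and 66.2 CPM with siNegative and 18.2, 18.6 and 18.9 CPM with siHNRNPH1 in HT-1080. LIG1 in HEK-293T was at 91.4, 87.1 and 93.1 CPM with siNegative and 52.1, 52.2 and 49.03 CPM with siHNRNPH1, and all 3 siHNRNPH1 libraries of that line lay close together. The log2 fold change of LIG1 was -1.96 ± 0.05 (adjusted p = 6.39e-09) in HT-1080 and -0.85 ± 0.12 (adjusted p = 0.0131) in HEK-293T. On leaving out a HEK-293T library the adjusted p of LIG1 rose as high as 0.105; without replicate 1 the value was -0.90 ± 0.04 (adjusted p = 4.8e-15). The subunits of RPA, which coats single-stranded DNA, had log2 fold changes of -0.63 (RPA1), -1.17 (RPA2) and -1.20 (RPA3) in HT-1080. That of UNG, the uracil-DNA glycosylase, was -0.75. In HEK-293T without replicate 1, FEN1, LIG1 and RPA3 (-0.50) fell (all genes: 31.3% lower), and RPA1, RPA2 and UNG did not pass the test.

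Of the nucleotide supply genes all 4 fell in HT-1080: RRM1 -0.88 and RRM2 -1.88, the subunits of ribonucleotide reductase, the thymidylate synthase TYMS -1.48 and the thymidine kinase TK1 -1.51. RRM2 (ENSG00000171848.16) was at 167, 163 and 164 CPM with siNegative and 49.7, 46.9 and 44.3 CPM with siHNRNPH1 in HT-1080. RRM2 in HEK-293T was at 305, 306 and 303 CPM with siNegative and 182, 206 and 215 CPM with siHNRNPH1. The siHNRNPH1 libraries were the low ones in both lines, with no overlap. The change in HEK-293T was -0.63 ± 0.11 (edgeR adjusted p = 0.0236), and without replicate 1 -0.59 ± 0.03 (adjusted p = 7.03e-14). The highest adjusted p of RRM2 on leaving out a HEK-293T library was 0.145. RRM1, TYMS and TK1 did not pass the test in HEK-293T, with log2 fold changes of -0.03, 0.15 and 0.18. Without replicate 1 TK1 also fell, at -0.27 (adjusted p = 2.03e-05, all genes: 31.3% lower), and RRM1 (0.05) and TYMS (-0.01) did not pass.

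Chromatin assembly genes also fell in HT-1080, all 4 of them, with log2 fold changes of -1.56 (CHAF1A), -1.70 (CHAF1B), -2.01 (UHRF1) and -1.15 (SLBP). CHAF1A and CHAF1B are subunits of the histone chaperone CAF-1, and SLBP binds the stem-loop of histone mRNAs. CHAF1B (ENSG00000159259.8) was at 21.4, 24.6 and 22.4 CPM with siNegative and 6.16, 8.24 and 7.59 CPM with siHNRNPH1 in HT-1080, and at 79.5, 80.5 and 79.7 CPM with siNegative and 76.96, 64.9 and 66.02 CPM with siHNRNPH1 in HEK-293T. The HEK-293T siHNRNPH1 libraries of CHAF1B were all lower, but the change of -0.23 ± 0.14 was not called (edgeR adjusted p = 0.353; without replicate 1 -0.35 ± 0.03, adjusted p = 5.89e-09). UHRF1 (ENSG00000276043.5), which brings the maintenance methyltransferase to new DNA, was at 123, 111 and 115 CPM with siNegative and 29.7, 31.9 and 29.2 CPM with siHNRNPH1 in HT-1080. In HEK-293T it was at 142, 142 and 132 CPM with siNegative and 147, 165 and 153 CPM with siHNRNPH1, the siHNRNPH1 libraries all lying above the controls. With all libraries UHRF1 was at 0.13 ± 0.11 (adjusted p = 0.490) in HEK-293T, and without replicate 1 it rose, at 0.14 ± 0.04 (adjusted p = 0.00306). CHAF1A and SLBP fell without that replicate, at -0.30 and -0.29 (all genes: 31.3% lower and 30.5% higher).

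The fork protection and checkpoint genes TIPIN, TIMELESS, CLSPN and DTL all fell in HT-1080, with log2 fold changes of -1.26, -1.77, -2.32 and -2.16. All 4 fell in HEK-293T without replicate 1 (all genes: 31.3% lower). TIMELESS (ENSG00000111602.12), the partner of TIPIN in the fork protection complex, was at 56.7, 48.2 and 53.9 CPM with siNegative and 17.2, 16.9 and 14.7 CPM with siHNRNPH1 in HT-1080. TIMELESS in HEK-293T was at 237, 238 and 243 CPM with siNegative and 111, 141 and 143 CPM with siHNRNPH1. Groups were apart in both lines, and TIMELESS fell in HEK-293T with all libraries (-0.89 ± 0.13, edgeR adjusted p = 0.0151; without replicate 1 -0.81 ± 0.03, adjusted p = 3.42e-16; highest on leaving out a library 0.108). CLSPN (ENSG00000092853.14), the adaptor through which ATR activates CHK1, was at 61.02, 55.3 and 62.6 CPM with siNegative and 12.5, 13.6 and 11.4 CPM with siHNRNPH1 in HT-1080, and at 155, 162 and 154 CPM with siNegative and 57.9, 144 and 146 CPM with siHNRNPH1 in HEK-293T. The low HEK-293T library was replicate 1, and the value was -0.48 ± 0.33 (adjusted p = 0.415) with it and -0.18 ± 0.03 (adjusted p = 3.82e-05) without it. DTL is the receptor of the ubiquitin ligase that degrades CDT1 in S phase.

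ZNF367 and WDR76 had large decreases in HT-1080. ZNF367 (ENSG00000165244.7), a zinc finger gene, was at 32.6, 29.2 and 31.9 CPM with siNegative and 3.22, 3.37 and 3.86 CPM with siHNRNPH1 in HT-1080. In HEK-293T ZNF367 was at 19.6, 19.7 and 19.4 CPM with siNegative and 21.7, 32.8 and 33.7 CPM with siHNRNPH1. The siHNRNPH1 libraries were thus all lower in HT-1080 and all higher in HEK-293T. ZNF367 fell in HT-1080 by 3.23 on the log2 scale (edgeR adjusted p = 6.04e-09). Its HEK-293T value was 0.55 ± 0.17 (adjusted p = 0.103), and without replicate 1 it rose, at 0.71 ± 0.04 (adjusted p = 3.11e-12). As all 51 genes fell in HT-1080, the 2 that rose in HEK-293T without replicate 1, UHRF1 and ZNF367, were those with opposite directions. Of the 15063 genes tested in both lines, 7.57% were lower in HT-1080 and higher in HEK-293T without that replicate. WDR76 (ENSG00000092470.12), a WD-repeat gene, was at 18.8, 18.99 and 17.8 CPM with siNegative and 2.43, 2.63 and 2.07 CPM with siHNRNPH1 in HT-1080, and at 39.8, 39.5 and 38.5 CPM with siNegative and 26.3, 36.9 and 39.9 CPM with siHNRNPH1 in HEK-293T, where replicate 1 was the low library. It fell by 3.02 on the log2 scale in HT-1080, and its HEK-293T value was -0.22 ± 0.16 (adjusted p = 0.428) with and -0.09 ± 0.04 (adjusted p = 0.0688) without replicate 1.

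**Figure D3:**
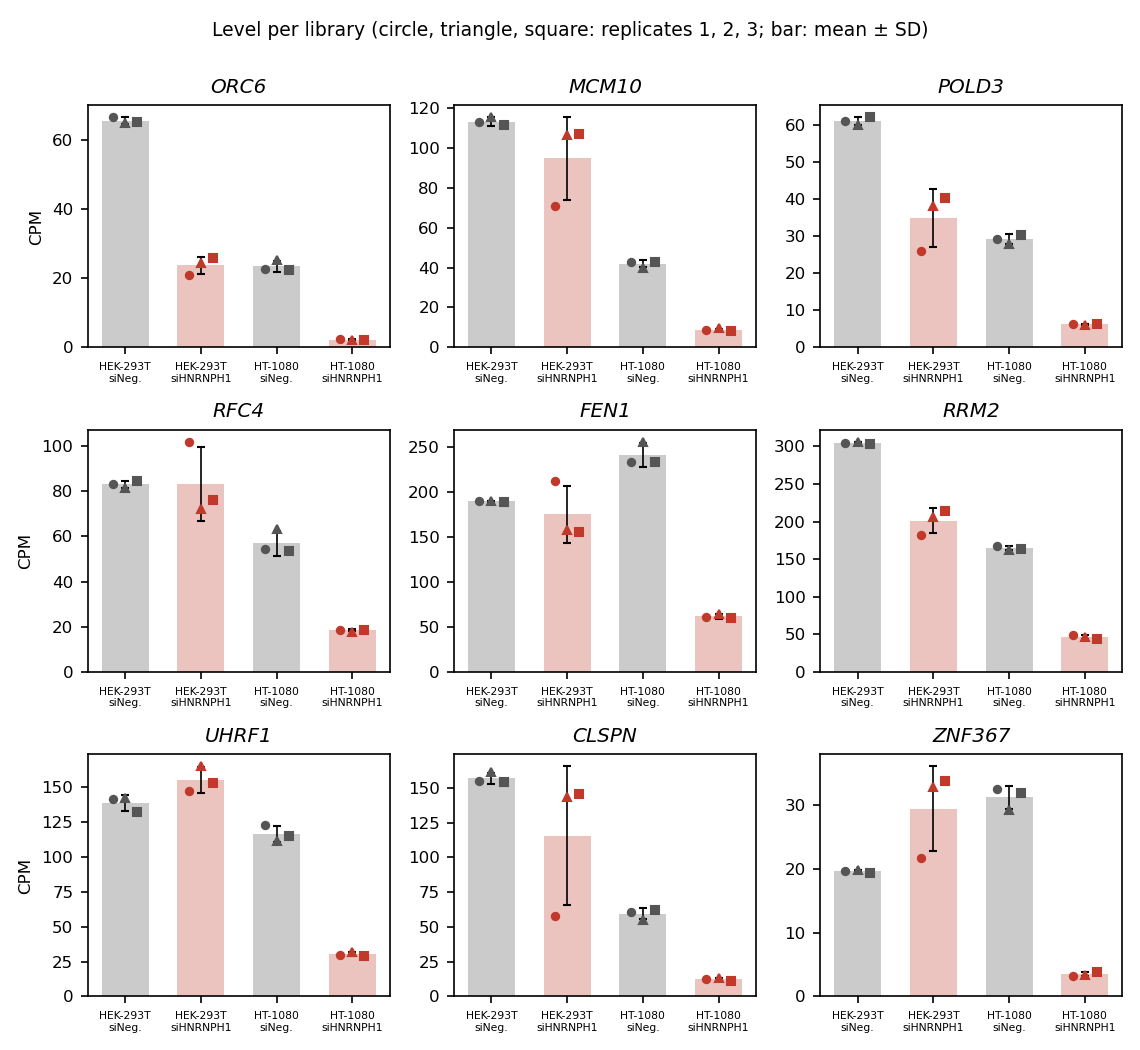
CPM of selected replication genes in each of the 12 libraries, 1 point per library, by line and siRNA, with bars for the mean and SD. ORC6 falls in both lines, from 22.5 to 25.3 CPM down to 2.11 to 2.50 CPM in HT-1080, while ZNF367 is lower in HT-1080 and higher in HEK-293T with siHNRNPH1.

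The difference between the lines was tested itself, as the HT-1080 change minus the HEK-293T change in a fit of all 12 libraries. It was negative and called for 49 of 51 genes and positive for 0, against 10.8% and 8.13% of 21276 genes tested. The median difference was -1.53, against -0.07 over all genes. RFC1 (-0.17 ± 0.28, edgeR adjusted p = 0.746) and RFC2 (-1.005 ± 0.34, adjusted p = 0.0650) did not pass. Without HEK-293T siHNRNPH1 replicate 1 the difference was called negative for all 51 genes and positive for 0, against 26.4% and 22.7% of 19447 genes. ZNF367 had the smallest p, with a difference of -3.85 ± 0.19 (adjusted p = 3.69e-06). The next were UHRF1 at -2.21 ± 0.12, CDC6 at -1.90 ± 0.11, MCM6 at -1.86 ± 0.11 and WDR76 at -2.87 ± 0.18. ORC1 (-1.70), ORC6 (-2.02), MCM2 (-1.94), RFC5 (-1.40) and MCM3 (-1.84) completed the 10 with the smallest p. The lines also differed in depth and in their tables of origin, and the part of either in this difference was not tested.

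The fold changes were set beside the promoter letters. In HT-1080 the 21 genes with a match had a median log2 fold change of -1.90 (-3.23 to -1.23), and the 23 without had -1.51 (-3.44 to -0.30). In HEK-293T the medians were -0.12 and -0.13, and without siHNRNPH1 replicate 1 they were -0.18 and -0.25. With the words TTTCGCGC and TTTGGCGC alone, which 12 genes held, the HT-1080 medians with and without a match were -1.945 and -1.535. The HEK-293T medians with and without a match of these words were -0.26 and -0.05, and -0.24 and -0.16 without that replicate. The order in HEK-293T thus turned with the choice of words. ORC6, with the lowest value of all 51, held no match in its window.

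Another 40 replication genes, not among the 51, were looked at in the same way. They too were chosen with earlier results of these data known. In HT-1080, 36 fell (all genes: 32.6%) and 1 rose (all genes: 32.7%), with a median log2 fold change of -0.96; ORC5, POLE4 and RNASEH2C did not pass the test. CDCA7 and HELLS, which act together in chromatin remodelling for DNA methylation, had the lowest values, at -3.35 ± 0.11 and -2.34 ± 0.06. CDCA7 was at 12.9, 14.6 and 13.7 CPM with siNegative and 1.58, 1.32 and 1.33 CPM with siHNRNPH1. HELLS was at 46.9, 44.7 and 46.1 CPM with siNegative and 9.25, 9.71 and 9.48 CPM with siHNRNPH1. POLD4, the small subunit of polymerase delta, was the 1 that rose, from 21.1, 28.99 and 22.1 to 32.6, 40.1 and 34.9 CPM (0.51 ± 0.12, edgeR adjusted p = 0.00489). Its direction was thus opposite to that of POLD1 and POLD3. In HEK-293T 2 of the 40 (5%) fell and 0 rose, close to the 4.88% of all genes called lower. They were the histone chaperone NASP (-0.77 ± 0.13, adjusted p = 0.0232) and the clamp loader subunit DSCC1 (-0.73 ± 0.12, adjusted p = 0.0204). NASP was at 515, 522 and 509 CPM with siNegative and 336, 287 and 295 CPM with siHNRNPH1 in that line. DSCC1 was at 45.3, 45.7 and 44.3 CPM with siNegative and 28.9, 25.96 and 27.9 CPM with siHNRNPH1, and neither gene's groups overlapped. Without replicate 1 the changes were -0.88 ± 0.03 (adjusted p = 3.84e-17) and -0.80 ± 0.04 (adjusted p = 2.09e-13), and the highest adjusted p on leaving out a library was 0.136 and 0.129. Without that replicate 22 of the 40 fell (all genes: 31.3%) and 6 rose (all genes: 30.5%). The difference between the lines was negative and called for 24 of the 40 and positive for 0 (all genes: 10.8% and 8.13%). Without that replicate it was negative for 34 and positive for 2 (all genes: 26.4% and 22.7%).

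The deposited values are per transcript, so the share of each gene's expected counts held by each transcript was also compared (limma diffSplice). In HT-1080 7 of the 48 replication genes with enough transcripts to test were called (ORC6, GMNN, MCM3, MCM7, POLD1, RFC2 and UNG), against 19.7% of 10752 genes. In HEK-293T 3 of 50 were called (ORC6, LIG1 and RRM2), against 8.74% of 13018 genes. Neither share of the replication genes was above the background in these fits. With transcripts of at least 5% of the gene alone, 5 of 31 were called in HEK-293T, against 755 of 10628 genes. In HT-1080 that setting called 7 of 36, against 1810 of 8906 genes. Without siHNRNPH1 replicate 1, 27 of 50 were called in HEK-293T, against 39.8% of 13394 genes. A second test, edgeR diffSpliceDGE, called 0 of the 48 genes in HT-1080, against 551 of 10752 genes. Of the 48, 3 had an unadjusted p under 0.05, so the usage calls are given as a description. In HEK-293T that test called 3 of 50 (POLA2, POLD1 and RRM1), against 666 of 13018 genes, and none of the 3 genes called by diffSplice. ORC6 was called by diffSplice in both lines, and ENST00000219097.7 was the transcript with the smallest p in each. In HEK-293T it held 57.2, 57.8 and 55.3% with siNegative and 34.5, 15.6 and 11.7% with siHNRNPH1. In HT-1080 it held 67.9, 66.9 and 65.3% with siNegative and 51.2, 42.5 and 0% with siHNRNPH1. The share was lower in every siHNRNPH1 library of both lines, and in HT-1080 it was uneven among them, where ORC6 was not called when any single siHNRNPH1 library was left out and had as few as 60 counts in a library.

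UNG, described after its values were seen, differed between the siRNAs in which transcript held the larger share in HT-1080. Its gene makes a nuclear and a mitochondrial form of the enzyme from separate starts, and the files do not say which form a transcript encodes. ENST00000336865.6 held 4.58, 8.55 and 9.85% with siNegative and 49.8, 50.5 and 62.1% with siHNRNPH1 in HT-1080. ENST00000242576.7 held 82.3, 78.5 and 83.6% with siNegative and 37.6, 39.4 and 30.1% with siHNRNPH1. The order of these transcripts was reversed in all 3 siHNRNPH1 libraries. In level, ENST00000336865.6 went from a mean of 2.25 ± 0.723 to 9.98 ± 1.21 CPM (SD, n = 3) and ENST00000242576.7 from 24.1 ± 1.16 to 6.59 ± 0.958 CPM. An exact two-sided permutation test of either share gave p = 0.1, the smallest that 3 libraries against 3 allow, and the diffSplice adjusted p of UNG was 1.75e-09, with UNG called in all 6 fits that left out 1 HT-1080 library but not by diffSpliceDGE. In HEK-293T ENST00000242576.7 held between 94.6 and 97.4% in all 6 libraries. RSEM divides reads that fit several transcripts or similar genes among them, and strandedness was not stated, so shares and levels of overlapping genes carry that uncertainty.

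**Figure D4:**
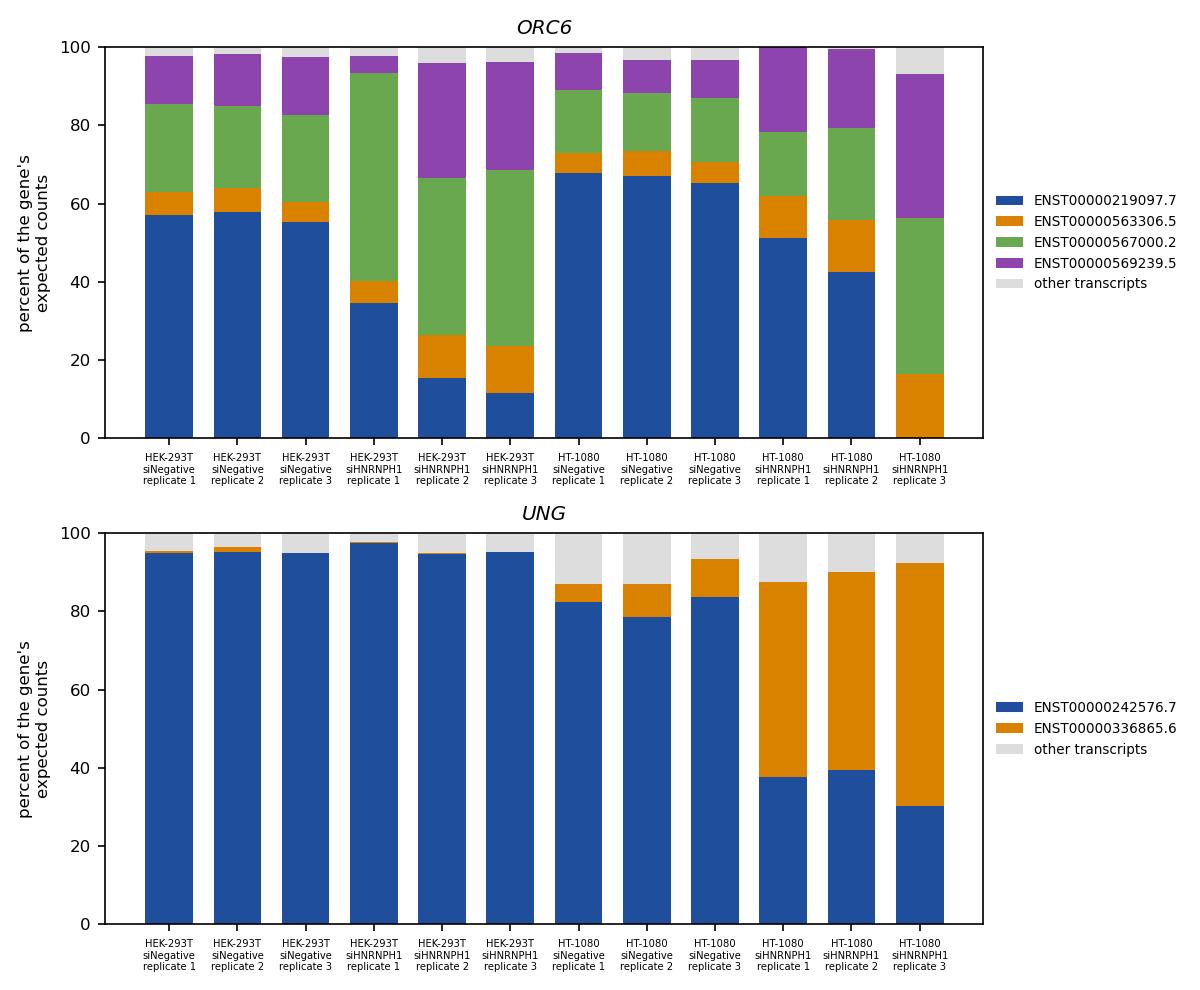
Share of the expected counts of ORC6 and UNG held by each transcript in each of the 12 libraries, in percent. ENST00000219097.7 of ORC6 is lower in all siHNRNPH1 libraries, and ENST00000336865.6 of UNG is the larger share in the 3 HT-1080 siHNRNPH1 libraries (49.8, 50.5 and 62.1%).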

How the data were processed

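The authors deposited expected counts per transcript variant, estimated with RSEM; the labels tie 1 table to each line. The genome build was GRCh38.p13, per the submitters' processing notes. The RSEM version, aligner, annotation release and strandedness are not given in the sources used here. Of the 16 samples, the 12 short-read libraries were used, and the 4 IsoSeq pools were not used here. Groups and replicates follow the labels, and 0 columns were unmatched.

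For every gene the deposited transcript values were added up and then rounded. After the filterByExpr step and TMM scaling, genes were tested with edgeR 4.0.16 (quasi-likelihood, robust, two-sided, R 4.3.3) in each line, with Benjamini-Hochberg adjustment over all genes tested and a threshold of 0.05. The difference between lines was an interaction term over 12 libraries. Standard errors come from the F statistic. Transcript usage was tested with limma 3.58.1 diffSplice on voom weights. Alternatives were DESeq2 1.42.0, limma-voom, other scalings, no filter, a replicate block, a shared spread and leaving out each library. The steps were tested on simulated data in which no library was made to stand apart, so these data do not cover a case like HEK-293T siHNRNPH1 replicate 1. All 51 genes passed the filter in each fit. Deviations of same-numbered libraries were at most weakly correlated (every r under 0.1), so numbers were not treated as pairs in the main fits. The replicate block is given as an alternative. No 2 libraries of a group agreed within sampling noise; HEK-293T siHNRNPH1 replicate 1 and, less so, HT-1080 siNegative replicate 2 stood apart.

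Genes with values per library are, in each role, those with the largest absolute change in each line, and the 10 with the smallest interaction p. Of the other replication genes, the 2 with the largest change per direction and line are named. The genes and lists were chosen with earlier results of these data known. Depth was 107.7 to 121.0 M (mega) counts for HEK-293T libraries and 27.3 to 32.7 M for those of HT-1080.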

Additional observations from a re-analysis of the deposited data

Results flagged for a closer look

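The response to siHNRNPH1 differed between the cell lines by the interaction test in edgeR for 49 of the 51 genes, and each difference was negative, that is, lower in HT-1080. The values below are the HT-1080 log2 fold change minus that of HEK-293T, over 12 libraries. Among the origin licensing genes the differences were ORC1 -1.70, ORC6 -2.02, CDC6 -1.90, CDT1 -2.75, GMNN -1.72, MCM2 -1.94, MCM3 -1.84, MCM4 -1.56, MCM5 -1.82, MCM6 -1.86 and MCM7 -1.54. For the helicase activation genes the differences were MCM10 -2.09, CDC45 -1.27, GINS1 -1.31, GINS2 -2.51, GINS3 -1.50 and GINS4 -0.88. Among the polymerase and primase genes the differences were POLA1 -1.13, POLA2 -1.38, PRIM1 -1.49, PRIM2 -1.07, POLD1 -1.30, POLD3 -1.53, POLE -1.02 and POLE2 -2.30. For the sliding clamp and clamp loader genes the differences were PCNA -1.44, RFC3 -1.19, RFC4 -1.77 and RFC5 -1.40. Among the lagging strand and single-stranded DNA genes the differences were FEN1 -1.97, LIG1 -1.19, RPA1 -0.71, RPA2 -1.53, RPA3 -1.22 and UNG -0.88. For the nucleotide supply genes the differences were RRM1 -0.92, RRM2 -1.32, TYMS -1.70 and TK1 -1.77. Among the chromatin assembly and histone supply genes the differences were CHAF1A -1.44, CHAF1B -1.55, UHRF1 -2.21 and SLBP -1.03. For the fork protection and checkpoint genes the differences were TIPIN -0.97, TIMELESS -0.95, CLSPN -1.90 and DTL -1.80. Among the other S-phase genes the differences were ZNF367 -3.85 and WDR76 -2.87.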

How the results depend on the processing

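In HT-1080 51 of 51 genes were called lower in every alternative run except with a spread shared over 12 libraries, which called 50 (all but RFC1). The count of called genes in HEK-293T, 7 with all libraries, was 3 with no filter on low counts, 11 with DESeq2 (21.6%, against 19.9% of all genes) and 0 to 34 on leaving out 1 library. By direction, DESeq2 called 10 lower (19.6%, against 9.55% of all genes) and 1 higher (1.96%, against 10.4%). With no filter 5.88% were called lower, against 1.91% of all genes, and 0% higher, against 1.98%. The count was 34 without siHNRNPH1 replicate 1 and 0 without any single siNegative library. Without that replicate 13 genes had the other sign in HEK-293T; 9 of them were called in neither fit, and 4 were called lower without it, at -0.23 (MCM7), -0.30 (GINS2), -0.12 (PCNA) and -0.27 (TK1); their highest values on leaving out a library were 0.11, 0.31, 0.15 and 0.38. The count of genes with a different response between lines was 47 to 51 in all settings, against 49. With library size alone as scaling, the median difference between lines of all genes shifted by 0.11. With transcripts of at least 5% of the gene, usage called 5 of 31 genes in HEK-293T (all genes: 755 of 10628) and 7 of 36 in HT-1080 (all genes: 1810 of 8906). Leaving out a HEK-293T library gave 1 to 27 of 50, against 3, with 314 to 5325 of all genes called. With diffSpliceDGE 0 of 48 were called in HT-1080 (all genes: 551 of 10752). Leaving out a HT-1080 library gave 4 to 9 of 48, against 7, with 1384 to 2035 of all genes called. With the 2 motif words TTTCGCGC and TTTGGCGC alone, 27.3% of the genes' windows matched, against 47.7% with all 4, and 1.15% of all windows did, against 3.31%. Over all genes the HEK-293T count was 1997, against 1302 with no filter, 3982 with DESeq2, 4550 with a shared spread, 0 with the replicate block and 0 to 12557 on leaving out a library. In HT-1080 it was 10538, against 6237 with a shared spread. For the difference between lines it was 4034, against 9535 without siHNRNPH1 replicate 1 and 2535 with the replicate block. The cause of these shifts was not tested.

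With the replicate number as a block, 0 of 51 genes were called in HEK-293T (edgeR, 9 at an unadjusted p under 0.05, and 4169 of 19966 genes), 51 in HT-1080 and 47 for the difference between lines. Same-numbered libraries correlated in HEK-293T with r between 0.0232 and 0.0981 and in HT-1080 with r between -0.0021 and 0.0853. In HEK-293T each siNegative library correlated best with the siHNRNPH1 library of its own number. However, siHNRNPH1 replicate 3 of that line correlated best with siNegative replicate 2 (r = 0.0632). In HT-1080 siNegative replicates 1 and 3 did not correlate best with their own number. The HT-1080 libraries were the shallower ones, and the part of depth in the spread of the transcript shares was not tested.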
